A study of Mus musculus with 15 samples.

Results

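The comparison set mouse LSK cells kept for 18 h in culture with extracellular vesicles (EV) of AFT cells against LSK cells taken straight after sorting, which are called non-cultured here. Its members were the 5 arrays whose titles name culture with EV and the 5 whose titles name non-cultured cells, 10 of the 15 arrays of the series. The other 5 arrays, of cells cultured for 18 h without EV, were used to show which differences also appeared without the vesicles. All 22180 genes with a probe set of their own were compared.

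LSK cells are lineage-negative bone marrow cells that carry the surface proteins Sca-1 and Kit, and they hold the hematopoietic stem cells and early progenitors. The labels name no strain, age, sex, genotype or treatment of the mice, and no difference between the groups other than culture and vesicles. Both cultured groups were kept in MyeloCult medium M5300, and the labels list neither added cytokines nor a vesicle dose. AFT cells are named only as the source of the vesicles. The 5 samples of a group are called biological replicates in the series' design text. Whether they came from separate mice or sorts is not given in the sources used here, so p-values measure the spread between these samples.

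Sorting and washing take hematopoietic progenitors out of the marrow, where stromal cells hold them in place through Cxcl12 and Kit ligand and keep most stem cells out of the cell cycle. Immediate early genes such as Fos and Egr1 are switched on within minutes of handling or stimulation, without new protein synthesis, and their messages decay quickly. Culture also brings oxygen, serum and a change of nutrients, to which cells respond through pathways for oxidative stress, sterol synthesis and protein folding. Extracellular vesicles are membrane-bound particles that carry proteins, lipids and RNA from the cells that release them.

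The array medians of all probe sets lay between 4.62 and 4.74 on the log2 scale of the deposited signal. Cultured and non-cultured arrays fell on opposite sides of principal component 1 (38.2% of the variance). Replicate 1 of the group with EV stood somewhat apart, with a mean correlation of 0.964 to its own group against 0.974 to 0.976 for the other 4. Non-cultured replicates 4 and 5 differed from replicates 1 to 3 in granulocyte genes, with a mean log2 signal of 5.71 and 5.74 over 32 granule genes against 6.30 to 6.31. Differences are of the deposited signal, and where the mean of either group was no higher than 4.74 the log2 difference is given without a fold, since signals that dim cannot be separated from background. Where the count of a list moved by over 1.5 times without replicate 1 with EV or against non-cultured arrays 1 to 3 alone, it is given both ways.

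Markers of the sorted population were present in both groups. Kit, the receptor for stem cell factor, had a mean log2 signal of 9.88 with EV and 9.62 in non-cultured cells (log2 difference 0.26 with an SE of 0.12 over 5 arrays in each group, limma adjusted p = 0.196), and passed against non-cultured arrays 1 to 3 alone (log2 0.41, limma adjusted p = 0.0455). Cd34, a surface glycoprotein of progenitors, differed by log2 -0.19 (SE 0.08, limma adjusted p = 0.137). Ptprc, the leukocyte antigen CD45, differed by log2 -0.25 (SE 0.11, limma adjusted p = 0.157). Ly6a, which encodes Sca-1, was not analysed here because it had no probe set of its own. Among 11 measured markers of LSK cells and progenitors, of which only Kit belongs to the gate itself, 3 were higher and 1 lower with EV.

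Of 76 different genes measured in 10 marker lists of other cell types, 16 were higher and 4 lower, 26.3% in all against 14.1% of all genes. Of 5 B cell markers none was called at the adjusted threshold in limma, with 1 at an unadjusted p under 0.05, and of 9 T and NK cell markers 1, the granule gene Nkg7, fell. Among 10 mature granulocyte markers S100a8, S100a9 and Mmp8 rose, whereas Ly6g differed by log2 0.01 and Ltf by log2 0.00. Among 11 macrophage markers Csf1r, Cd68, Msr1 and Adgre1 rose, while the complement genes C1qa (log2 0.04), C1qb (log2 0.25) and C1qc (log2 0.17) did not pass. Of 7 dendritic cell markers Flt3 (log2 0.65) and Siglech (log2 0.76) rose, and the antigen presentation genes H2-Aa (log2 -1.69) and H2-Ab1 (log2 -1.39) fell. Of 6 endothelial markers Pecam1 and Tek rose and Emcn fell. The mean log2 signal over the granulocyte markers was 6.44 to 6.93 with EV and 4.65 to 6.01 in non-cultured cells, and over the macrophage markers 5.22 to 5.47 and 4.73 to 4.81. In bulk RNA, more cells of a type and more RNA per cell cannot be told apart.

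In all, 1394 genes (6.28%) were higher and 1741 (7.85%) lower after 18 h with EV than in non-cultured cells (limma, Benjamini-Hochberg adjusted p under 0.05, two-sided). Together these are 14.1% of the 22180 genes, and 5762 genes had an unadjusted p under 0.05. Of the called genes, 357 rose and 457 fell more than 2-fold, and 22 rose and 20 fell more than 8-fold. The median called gene differed by log2 0.68 where higher and by log2 -0.74 where lower, against a median of log2 0.04 over all genes and a median SE of 0.13. In 1122 genes (5.06%) every array with EV lay above every non-cultured array, and in 1370 (6.18%) every one lay below. The counts given for a list are to be read beside these shares of all genes. All lists were written with earlier results of these data known, so their counts are descriptions and not independent tests.

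The split between rises and falls depended on the scaling. As deposited, 44.5% of the called genes were higher, and after centring each array on its own median 31.9% were, with 996 higher and 2122 lower. Without replicate 1 of the group with EV the counts were 1467 higher and 1616 lower, and with non-cultured arrays 1 to 3 alone they were 1170 and 1528.

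**Figure D1:**
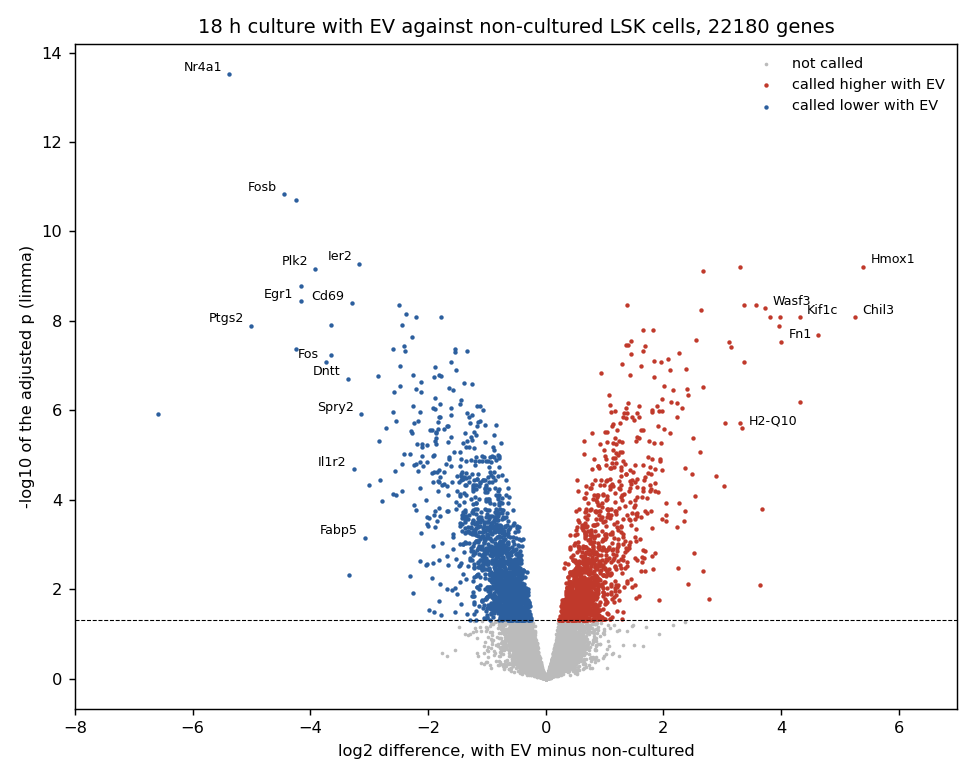
The log2 difference between culture with EV and non-cultured cells (horizontal axis) is plotted against the negative log10 of limma's adjusted p (vertical axis) for each of 22180 genes, with the dashed line at an adjusted p of 0.05. The 1394 red genes were called higher and the 1741 blue ones lower, with Hmox1 and Chil3 at the far right and Nr4a1 at the top left.

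Most immediate early genes fell. Nr4a1, an orphan nuclear receptor induced within minutes of stimulation, read 11.38, 11.37, 11.37, 11.57 and 11.52 on the 5 non-cultured arrays, and 5.99, 5.88, 6.20, 6.31 and 5.91 on the 5 with EV. The cultured arrays all sat far below the non-cultured ones, and neither group spread widely. Nr4a1 thus fell 41.8-fold (log2 -5.38 with an SE of 0.11 over 5 arrays in each group, limma adjusted p = 3.03e-14), the smallest adjusted p of any gene in this comparison. Its relatives Nr4a2 (log2 -4.25, SE 0.14) and Nr4a3 (log2 -4.16, SE 0.20) fell by about as much.

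The AP-1 subunits Fos, Fosb and Jun form the dimers that read many stimuli. Fos read 8.76, 8.53, 8.56, 9.41 and 9.42 in non-cultured cells and 4.85, 6.0, 5.60, 4.66 and 4.88 with EV. Non-cultured replicates 4 and 5 were the highest, and the groups did not overlap. Fosb read 9.08 to 9.32 in non-cultured cells and 4.43 to 5.17 with EV, and Jun 9.43 to 9.70 and 5.51 to 6.77. Fos fell 13.3-fold (log2 -3.74, SE 0.26), Fosb 21.7-fold (log2 -4.44, SE 0.14) and Jun 12.6-fold (log2 -3.65, SE 0.25).

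Egr1, a zinc finger factor of the same early response, read 9.69, 9.66, 9.77, 10.38 and 10.41 in non-cultured cells, with replicates 4 and 5 again the highest. With EV it read 5.23, 6.22, 6.36, 5.74 and 5.52, an 18.0-fold fall (log2 -4.17, SE 0.21). Ptgs2, the inducible cyclooxygenase that starts prostaglandin synthesis, differed by log2 -5.01 (SE 0.29), from readings of 7.68 to 9.48 to readings of 3.24 to 4.02. Plk2, a stress-induced kinase, differed by log2 -3.92, and Ier2, a small early response gene, fell 8.99-fold.

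Of 34 measured immediate early genes, 31 fell, and the other 3 did not pass. The median difference was log2 -2.11, against 0.04 over all genes. In 30 of the 34, every array with EV lay below every non-cultured array, against 6.18% of all genes. The mean log2 signal over the list was 8.37 to 8.60 on the non-cultured arrays and 6.18 to 6.37 on those with EV, with no overlap. Without EV it was 6.16 to 6.31, inside much the same range.

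Genes that restrain growth factor signalling through MAP kinases are themselves induced by it, and 11 of 15 fell (median log2 -1.11). The Ras pathway inhibitor Spry2 read 9.42, 8.90, 8.67, 8.75 and 8.21 in non-cultured cells and 5.11, 6.26, 5.45, 5.73 and 5.69 with EV, an 8.83-fold fall. The nuclear phosphatases Dusp1 (log2 -2.11, SE 0.16) and Dusp5 (log2 -2.47, SE 0.19), which also count as immediate early genes, fell as well. Dusp6, the cytoplasmic phosphatase for ERK, fell by 1.22 on the log2 scale (SE 0.12), from 9.69 to 9.80 on the non-cultured arrays to 8.11 to 8.69 with EV. Its difference between the cultured groups is given with the cells cultured without EV.

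The promoters of the early genes were searched for the core of the cyclic AMP response element (CRE), which binds factors of the CREB and ATF families. Only the first listed start site of each gene in RefSeq assembly GRCm38.p6 was used, and the 250 bases before it were searched. Genes without a listed promoter were left out. TGACG on either strand was found in 14 of 27 early gene promoters whose genes fell (51.9%). It occurred in 20.9% of the promoters of 16990 compared genes and in 35.3% of those of all 1383 genes that fell. The full element TGACGTCA, which contains the core, was found in 3 of the 27 (11.1%) and in 2.11% of the compared promoters. Of the promoters of all genes that fell, 4.19% held it. A match is a description of the letters in this window and not evidence of binding. Other early gene promoters whose genes fell, such as those of Fosl2, Dusp2, Jun, Egr2 and Ptgs2, hold no core in this window. The following stretches show the cores of Nr4a1, Nr4a2, Nr4a3, Fos, Fosb and Dusp1. Each core is in capitals (TGACG, or CGTCA where it lies on the other strand), and the gene's own strand is read 5′ to 3′, in GRCm38.p6.
Nr4a1, chr15:101266596-101266830, plus strand: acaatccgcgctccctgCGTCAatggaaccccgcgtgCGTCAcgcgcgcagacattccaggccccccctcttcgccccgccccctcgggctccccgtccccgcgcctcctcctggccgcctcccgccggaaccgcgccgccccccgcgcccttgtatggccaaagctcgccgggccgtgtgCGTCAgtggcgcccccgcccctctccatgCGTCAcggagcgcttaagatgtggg
Nr4a2, chr2:57124090-57124223, minus strand: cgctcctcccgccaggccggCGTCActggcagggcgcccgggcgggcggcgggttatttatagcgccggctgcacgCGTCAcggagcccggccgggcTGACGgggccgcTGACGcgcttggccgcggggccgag
Nr4a3, chr4:48045055-48045182, plus strand: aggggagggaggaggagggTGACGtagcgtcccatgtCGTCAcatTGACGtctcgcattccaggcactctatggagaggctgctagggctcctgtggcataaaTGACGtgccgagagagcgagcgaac
Fos, chr12:85473741-85473848, plus strand: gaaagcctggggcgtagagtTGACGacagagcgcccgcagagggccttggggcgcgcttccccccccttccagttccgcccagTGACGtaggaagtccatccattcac
Fosb, chr7:19310081-19310125, minus strand: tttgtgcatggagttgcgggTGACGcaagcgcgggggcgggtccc
Dusp1, chr17:26508588-26508683, minus strand: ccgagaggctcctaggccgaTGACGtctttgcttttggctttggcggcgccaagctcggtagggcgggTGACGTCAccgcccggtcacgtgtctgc
The promoters of Nr4a1, Nr4a2 and Nr4a3 each hold 4 cores, that of Dusp1 holds 3 with a full element among them, that of Fos holds 2 and that of Fosb 1.

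**Figure D2:**
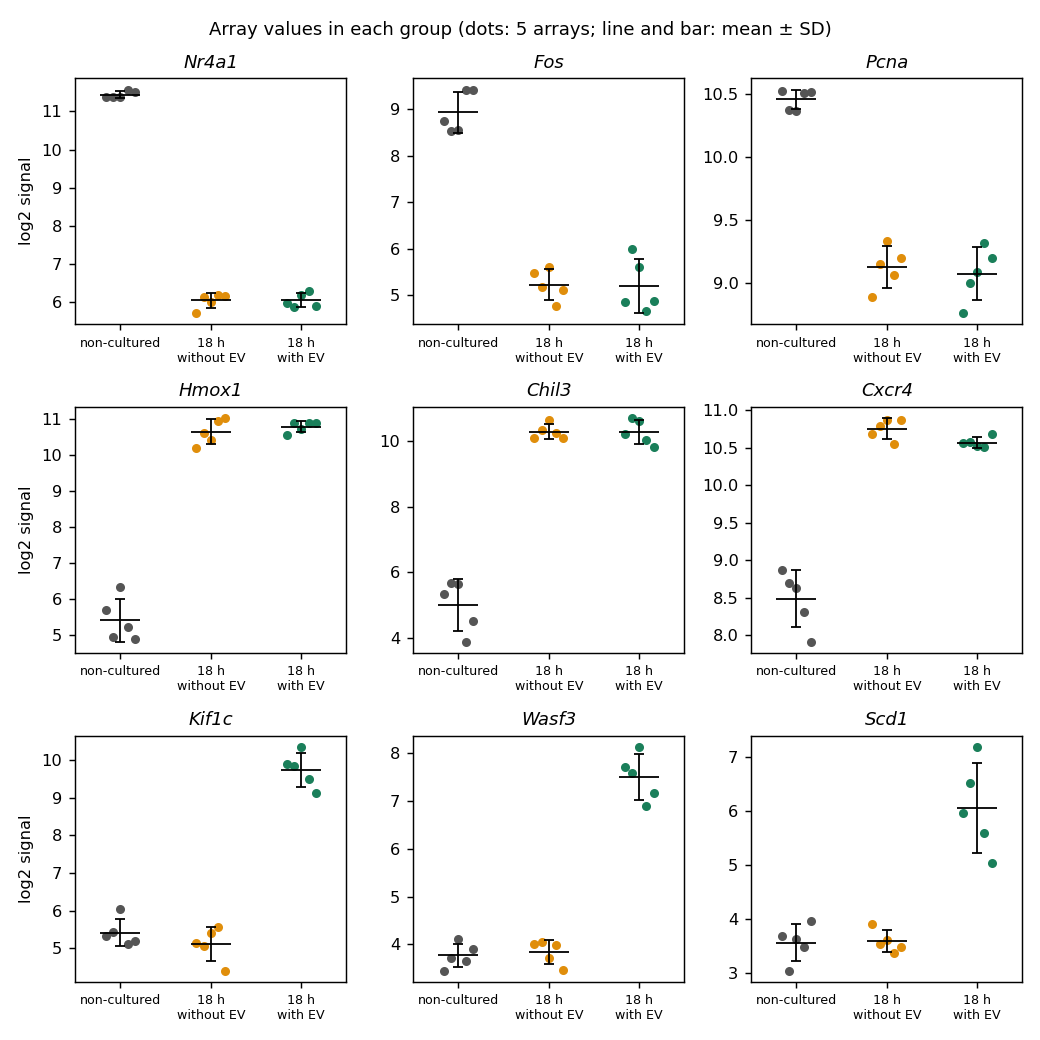
Log2 signal (vertical axes, each on its own range) of 9 genes on each array of the 3 groups, with dots for the 5 arrays of a group and the line and bar for the mean ± SD. Nr4a1, Fos and Pcna are lower and Hmox1, Chil3 and Cxcr4 higher in both cultured groups, while Kif1c, Wasf3 and Scd1 are high with EV alone.

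Genes of the cell cycle fell together. Pcna, the sliding clamp of DNA polymerases, read 10.52, 10.38, 10.37, 10.51 and 10.51 in non-cultured cells and 8.76, 9.0, 9.08, 9.31 and 9.20 with EV. The lowest non-cultured array was above the highest cultured one, and the fall was 2.61-fold (log2 -1.39, SE 0.11, limma adjusted p = 2.43e-07). Mcm2, part of the replicative helicase, fell 2.90-fold (log2 -1.54, SE 0.10), from 7.67 to 7.98 to 6.10 to 6.52. Dtl, which directs the destruction of the licensing factor Cdt1 in S phase, fell 6.05-fold (log2 -2.60, SE 0.17). Pole, the catalytic subunit of DNA polymerase epsilon, fell by 2.38 on the log2 scale on its brighter probe set and by 0.95 on a dimmer one.

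Of 40 measured DNA replication genes 35 fell, with a median of log2 -1.25. The clamp loader subunit Rfc2, named after its value was seen as are the other exceptions named for a list, rose by log2 0.44, a call lost (0 members higher) without replicate 1 with EV, against non-cultured arrays 1 to 3 alone and after median centring. In 34 of the 40 the groups did not overlap, with the cultured arrays lower, against 6.18% of all genes. The mean over the list was 7.25 to 7.40 on the non-cultured arrays and 5.95 to 6.12 with EV. Uhrf1, which keeps DNA methylation through replication, fell 4.84-fold, and its partner Dnmt1 by 0.80 on the log2 scale.

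Mitosis genes followed with smaller falls. Of 39 measured, 27 fell (median log2 -0.72). In 20 the cultured arrays were all below the non-cultured ones, against 6.18% of all genes. Top2a, the topoisomerase that untangles sister chromatids, read 9.06, 8.98, 8.83, 8.92 and 9.0 in non-cultured cells and 6.90, 7.09, 7.03, 7.18 and 7.20 with EV. That 3.67-fold fall (log2 -1.88, SE 0.13) was larger than any spread within a group. The checkpoint kinase Bub1 fell 3.58-fold, the spindle motor Kif11 3.33-fold, the mitotic kinase Cdk1 2.71-fold and the proliferation marker Mki67 1.99-fold. Anln, which encodes the cytokinesis protein anillin, was the member that rose (log2 0.98, SE 0.20).

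Inhibitors of the cell cycle moved both ways. Of 26 cell cycle inhibitor and quiescence genes 3 rose and 5 fell, with a median of log2 -0.05, and 5 rose without replicate 1 with EV. Cdkn1a, which encodes the inhibitor p21, read 9.97, 9.99, 9.81, 9.45 and 9.30 in non-cultured cells and 8.29, 8.57, 8.28, 8.70 and 8.15 with EV, a 2.47-fold fall. The antiproliferative gene Btg1 fell by 0.81 on the log2 scale. Txnip, which restrains glucose uptake and thioredoxin, rose 2.26-fold (log2 1.18, SE 0.10), and the p53 target Ccng1 rose by log2 0.85.

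The promoters of the cell cycle genes were searched for other motifs. CCAAT, the box read by NF-Y, was found on either strand in 21 of 30 promoters of DNA replication genes that fell (70.0%) and in 15 of 22 of mitosis genes that fell (68.2%). It occurred in 35.6% of the compared promoters and in 41.0% of those of all genes that fell. An E2F motif, TTTCCCGC or TTTGGCGC, was found in 6 of the 30 replication promoters (20%). Its share was 1.81% of the compared promoters and 4.7% of those of all genes that fell. TTTGAA, a core of the cell cycle homology region, was found in 8 of the 22 mitosis promoters (36.4%). The compared promoters held it in 14.2% and those of all genes that fell in 11.6%. The following stretches show CCAAT boxes (ATTGG on the other strand) in Pcna, Mcm2, Top2a and Bub1 and the E2F motif in Dtl, in capitals, with the same build and reading direction as above.
Pcna, chr2:132253243-132253287, minus strand: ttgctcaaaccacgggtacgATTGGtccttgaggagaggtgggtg
Mcm2, chr6:88898931-88898975, minus strand: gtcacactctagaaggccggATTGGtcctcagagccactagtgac
Top2a, chr11:99024223-99024436, minus strand: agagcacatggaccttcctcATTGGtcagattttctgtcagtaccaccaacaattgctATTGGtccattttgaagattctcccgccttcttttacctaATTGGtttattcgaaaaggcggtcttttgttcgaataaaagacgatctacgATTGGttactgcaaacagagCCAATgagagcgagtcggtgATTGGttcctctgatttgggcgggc
Bub1, chr2:127831877-127831947, minus strand: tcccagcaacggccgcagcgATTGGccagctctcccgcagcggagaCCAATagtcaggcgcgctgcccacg
Dtl, chr1:191575545-191575592, minus strand: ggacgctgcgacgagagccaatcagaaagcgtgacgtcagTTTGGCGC
Top2a holds 6 boxes in this stretch and Bub1 holds 2.

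Where genes for making ribosomes passed the test, they were lower. The list of MYC targets and ribosome assembly factors had 41 measured members, of which 18 fell (median log2 -0.44) and the other 23 did not pass, while 1 rose and 16 fell against non-cultured arrays 1 to 3 alone. Odc1, the first enzyme of polyamine synthesis, fell 2.98-fold, the snoRNP protein Nop58 2.21-fold and the nucleolar helicase Ddx21 2.25-fold. Myc itself read 8.77, 8.27, 8.21, 9.36 and 9.34 in non-cultured cells, where replicates 4 and 5 were the highest, and 9.01, 9.09, 9.07, 9.07 and 9.06 with EV. The difference was log2 0.27 (SE 0.20, limma adjusted p = 0.436) and became log2 0.64 (limma adjusted p = 0.00583) against non-cultured arrays 1 to 3 alone.

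Of 39 cytosolic ribosomal protein genes 12 fell, by small amounts, with a median of log2 -0.25, for example Rpl7a (log2 -0.38, SE 0.06) and Rps3 (log2 -0.42, SE 0.07). In the list of heat shock and chaperones, 14 of 24 members fell (median log2 -0.41). Among them were the mitochondrial chaperones Hspa9 (log2 -0.74, SE 0.10) and Hspd1 (log2 -0.66, SE 0.10), the chaperonin subunit Cct2 (log2 -0.77, SE 0.11) and Hsp90aa1 (log2 -0.64, SE 0.09). The HSP90 partner Chordc1 rose by log2 0.60.

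Of 41 unfolded protein and integrated stress genes 20 fell (median log2 -0.32). Ppp1r15a, the phosphatase subunit that restores translation after stress, fell 3.51-fold, the amino acid transporter chain Slc3a2 2.54-fold and Hspa5, the main chaperone of the endoplasmic reticulum, 1.92-fold. Ddit4, an inhibitor of mTORC1, was the member that rose, 5.17-fold (log2 2.37, SE 0.27), and without replicate 1 with EV 2 members rose and 18 fell.

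Most inflammatory genes fell too. Cd69, a lectin of activated cells that keeps them in tissue, read 8.48, 8.50, 8.51, 8.97 and 8.92 in non-cultured cells and 5.43, 5.56, 5.61, 5.27 and 5.02 with EV, a 9.85-fold fall (log2 -3.30, SE 0.17). Tnfaip3, the deubiquitinase that switches NF-kB off, fell 4.61-fold, the IkB family member Nfkbiz 5.32-fold and the chemokine Ccl3 2.23-fold. In the list of NF-kB and inflammation, 19 of 31 members fell and 2, Cflar and the bacterial lipoprotein receptor Tlr2, rose (median log2 -0.97), with 1 member higher against non-cultured arrays 1 to 3 alone and after median centring. The mean of the list was 7.0 to 7.32 on the non-cultured arrays and 6.04 to 6.22 with EV.

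Of 35 interferon response genes 11 fell (median log2 -0.37). The chemokine Cxcl10 fell 2.75-fold, the restriction factor Bst2 2.40-fold, the transcription factor Irf1 2.18-fold and the membrane protein Ifitm2 2.05-fold. Irf8, a factor of monocyte and dendritic cell fate that the list also holds, rose (log2 1.80, SE 0.26). A second member rose without replicate 1 with EV and against non-cultured arrays 1 to 3 alone, where 10 and 8 fell.

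The largest rise of all genes was that of Hmox1, the heme oxygenase. It read 5.68, 4.92, 6.31, 5.21 and 4.89 in non-cultured cells and 10.56, 10.91, 10.73, 10.89 and 10.90 with EV. The cultured arrays lay close together and far above the non-cultured ones. The rise was 42.1-fold (log2 5.40 with an SE of 0.23, limma adjusted p = 6.07e-10). Gclm, the regulatory subunit of glutathione synthesis, read 7.50, 7.63, 6.96, 7.52 and 7.54 in non-cultured cells and 9.86, 10.23, 10.25, 10.10 and 10.11 with EV, a 6.40-fold rise. Its catalytic partner Gclc rose 2.22-fold and the catalase gene Cat 2.58-fold.

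Of 29 NRF2 and oxidative stress genes 18 rose, with a median of log2 0.65. In 16 the cultured arrays were all above the non-cultured ones, against 5.06% of all genes. The peroxiredoxin Prdx2 (log2 -0.45) and the thioredoxin Txn1 (log2 -0.41) fell. The antioxidant element TGACNNNGC was found on either strand in 2 of 14 promoters of the list's genes that rose (14.3%). Its share was 10.8% of the compared promoters and 12.5% of those of all genes that rose.

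Some genes of lipid synthesis and the lysosome rose. Of 29 sterol and fatty acid synthesis genes 14 rose (median log2 0.45), and the other 15 did not pass. Hmgcs1, which makes the precursor of mevalonate, read 6.09, 6.58, 6.90, 6.85 and 6.55 in non-cultured cells and 8.31, 8.02, 8.83, 7.82 and 7.77 with EV, a 2.93-fold rise (log2 1.55, SE 0.20). The sterol oxidase Msmo1 rose 3.47-fold and the fatty acid desaturase Fads2 2.35-fold. Scd1, another desaturase, rose by log2 2.49, and it is the member of this list that also differed between the cultured groups.

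CCAAT was found in 8 of 9 promoters of the sterol and fatty acid genes that rose (88.9%), against 35.6% of the compared promoters and 34.5% of those of all genes that rose. The consensus sterol regulatory element was found in none of the 9 and in 0.0589% of the compared promoters. The CCAAT boxes of Hmgcs1 and Msmo1, in capitals with the same build and reading direction, are shown because these members had the smallest adjusted p after Fads2 and Scd1.
Hmgcs1, chr13:119690101-119690330, plus strand: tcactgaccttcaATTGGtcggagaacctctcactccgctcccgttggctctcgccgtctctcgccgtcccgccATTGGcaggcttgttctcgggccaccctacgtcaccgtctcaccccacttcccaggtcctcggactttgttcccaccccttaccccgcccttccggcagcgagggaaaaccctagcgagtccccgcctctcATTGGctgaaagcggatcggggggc
Msmo1, chr8:64733609-64733758, minus strand: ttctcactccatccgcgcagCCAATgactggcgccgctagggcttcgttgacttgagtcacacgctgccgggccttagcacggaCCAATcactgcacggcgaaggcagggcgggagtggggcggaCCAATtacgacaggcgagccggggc
Each stretch holds 3 boxes.

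Of 41 lysosome and autophagy genes 17 rose (median log2 0.34), whereas 11 rose and 1 fell against non-cultured arrays 1 to 3 alone. The protease Ctsd read 9.61 to 9.80 in non-cultured cells and 10.99 to 11.18 with EV, a 2.61-fold rise (log2 1.38, SE 0.07). The tetraspanin Cd63 rose 2.63-fold, the saposin precursor Psap 2.62-fold and the membrane protein Lamp2 1.61-fold. Cd63 is also a common marker of vesicles, and its difference between the cultured groups was log2 -0.08 (limma adjusted p = 0.898).

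Genes of energy metabolism changed in both directions. Pdk4, the kinase that closes off pyruvate oxidation, read 4.30, 4.06, 5.24, 4.36 and 4.38 in non-cultured cells and 8.30, 8.23, 8.17, 8.63 and 8.86 with EV, a difference of log2 3.97 (SE 0.23). The hypoxia targets Vegfa, the vascular growth factor (log2 -2.83, SE 0.29), and Slc2a3, a glucose transporter (log2 -1.43, SE 0.17), fell, as did the cytokine and tautomerase gene Mif (log2 -0.88, SE 0.09). In the list of glycolysis and hypoxia, 12 of 30 members fell and 3 rose (median log2 -0.31). Of 45 respiratory chain genes 14 fell (median log2 -0.32), 9 after quantile normalization. Among those that fell were cytochrome c, Cycs (log2 -1.23, SE 0.16, on its brightest probe set), and Ndufa4 (log2 -0.88, SE 0.10). The 5 Cycs probe sets ran from log2 -1.58 to log2 -0.66, and those at -0.66 did not pass (limma adjusted p = 0.104).

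Among 22 glucocorticoid response genes 10 rose and 3 fell (median log2 0.33). Zbtb16, the zinc finger factor PLZF, rose 5.90-fold (log2 2.56, SE 0.16), from 5.65 to 6.54 to 8.54 to 8.94. Tsc22d3, which encodes the leucine zipper protein GILZ, rose 3.22-fold (log2 1.69, SE 0.11). Pdk4 and Ddit4 belong to this list as well, and so does Dusp1, which fell (log2 -2.11, SE 0.16). Il1r2, the decoy receptor for interleukin 1, also fell, with 9.01, 8.33, 8.16, 6.41 and 6.94 in non-cultured cells and 4.16 to 5.02 with EV (log2 -3.26, SE 0.38). Non-cultured replicates 4 and 5 were the lowest of that group for Il1r2 and still above every array with EV.

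**Figure D3:**
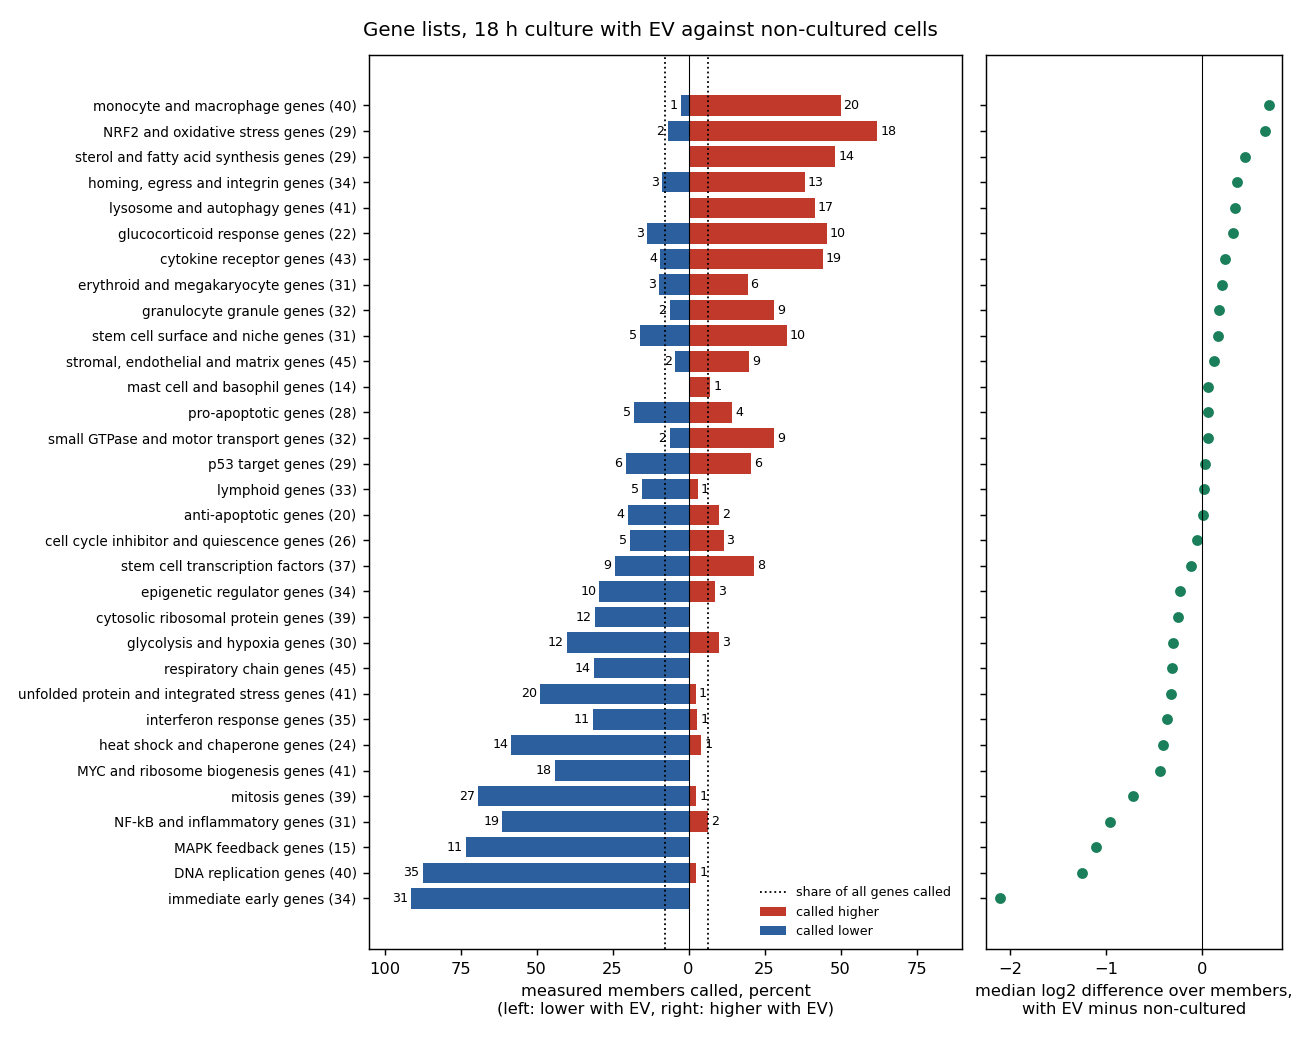
For each gene list (measured members in brackets), the left panel shows the percent of members called higher (red) and lower (blue) with EV than in non-cultured cells, with dotted lines at 6.28% and 7.85%, the shares of all genes, and the right panel shows the median log2 difference. Immediate early and DNA replication genes lie at the lower end, with medians of -2.11 and -1.25, and monocyte and NRF2 genes at the upper end, with 0.70 and 0.65.

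Some genes of the myeloid line rose far. Chil3, a chitinase-like protein of macrophages and neutrophils, read 5.34, 5.69, 5.65, 3.89 and 4.50 in non-cultured cells and 10.22, 10.68, 10.60, 10.03 and 9.81 with EV. The rise was 38.2-fold (log2 5.25, SE 0.29, limma adjusted p = 8.23e-09). Mmp8, the neutrophil collagenase, rose by log2 3.99 (SE 0.23), and the acute-phase gene Hp rose 6.38-fold (log2 2.67, SE 0.21).

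The calprotectin gene S100a8 read 9.37, 9.20, 9.28, 5.92 and 6.42 in non-cultured cells and 10.96, 10.81, 10.85, 10.31 and 10.60 with EV. Non-cultured replicates 4 and 5 lay more than 2 log2 units below replicates 1 to 3, yet no array with EV was as low as any non-cultured one. Of 32 granulocyte granule genes 9 rose and 2 fell (median log2 0.18), and 7 rose and 4 fell against non-cultured arrays 1 to 3 alone. The late granule genes Camp and Ngp did not pass. Camp differed by log2 0.39 (limma adjusted p = 0.675), and Ngp by log2 1.47 with an SE of 0.51 (limma adjusted p = 0.0661).

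Of 40 monocyte and macrophage genes 20 rose and 1, the transcription factor Klf4 (log2 -2.72), fell. The median was log2 0.70. Fn1, fibronectin, rose by log2 4.01 (SE 0.25), from 3.82 to 4.57 to 7.63 to 8.69, and the coagulation factor F13a1 8.69-fold. Csf1r, the receptor for macrophage colony-stimulating factor, read 5.14, 5.23, 5.01, 5.74 and 4.80 in non-cultured cells and 7.26, 7.84, 7.65, 7.41 and 7.65 with EV, a 5.21-fold rise. Lysozyme, Lyz2, rose 3.55-fold and the signalling adaptor Tyrobp 3.08-fold. The mature macrophage genes Mrc1 (log2 0.06) and Marco (log2 0.34) did not pass.

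Many receptors for cytokines rose. Of 43 measured, 19 were higher and 4 lower, with a median of log2 0.24. Csf2rb2, a beta chain of the interleukin 3 receptor, read 5.14, 5.01, 5.54, 4.52 and 5.02 in non-cultured cells and 8.24, 8.13, 8.53, 8.65 and 8.57 with EV, a 10.4-fold rise (log2 3.38, SE 0.18). Lifr, the receptor for leukemia inhibitory factor, rose by log2 2.26 (SE 0.15). Flt3, a receptor of multipotent progenitors, rose 1.57-fold (log2 0.65, SE 0.07), with 8.89 to 9.05 in non-cultured cells and 9.59 to 9.65 with EV.

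Of 34 genes of homing and adhesion 13 rose and 3 fell (median log2 0.37), with 12 and 5 against non-cultured arrays 1 to 3 alone. Cxcr4, the receptor that anchors progenitors to Cxcl12 in the marrow, read 8.87, 8.70, 8.63, 8.31 and 7.92 in non-cultured cells and 10.57, 10.57, 10.52, 10.51 and 10.69 with EV. The arrays with EV were nearly equal, with an SD of 0.07, and the rise was 4.25-fold (log2 2.09, SE 0.14). Itgb3, the beta 3 integrin, read 4.77 to 5.95 in non-cultured cells and 8.76 to 9.01 with EV, a 12-fold rise. Itgae, the integrin alpha chain that binds E-cadherin, rose by log2 3.30 (SE 0.14). The chemokine receptor Ccr2 rose 3.59-fold and the selectin ligand Selplg 1.87-fold.

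Stem cell genes moved in both directions. Among 31 stem cell surface and niche genes 10 rose and 5 fell (median log2 0.17). The endothelial and stem cell ligand Angpt1 fell 4.32-fold on its brighter probe set (log2 -2.11, SE 0.22) and by 0.87 on the log2 scale on another. The mucin Emcn fell 4.0-fold. Pdzk1ip1, a membrane protein of the most primitive LSK cells, rose 2.39-fold, and Itga2b, the integrin CD41, 1.92-fold.

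Among 37 stem cell transcription factors 8 rose and 9 fell (median log2 -0.11). The largest fall of this list was that of Egr1 (log2 -4.17), given above with the early genes. Without replicate 1 of the group with EV 9 rose and 5 fell, and against non-cultured arrays 1 to 3 alone 7 rose and 5 fell. Gfi1b, a repressor of the erythroid and megakaryocytic line, rose 3.16-fold, and the chromatin protein Hmga2 2.16-fold. The scaffold factor Lmo2 fell by 0.48 on the log2 scale. Runx1 (log2 0.18), Gata2 (log2 0.40) and Meis1 (log2 0.07) did not pass, although Gata2 did without replicate 1 with EV (log2 0.61, limma adjusted p = 0.0289) and Runx1 after quantile normalization (log2 0.34, limma adjusted p = 0.0249).

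Of 33 lymphoid genes 5 fell (15.2%) and 1, Flt3, rose, 18.2% called against 14.1% of all genes. Dntt, the terminal transferase of early lymphoid progenitors, read 9.79, 9.81, 9.67, 10.06 and 9.99 in non-cultured cells and 5.49, 6.72, 6.67, 6.65 and 6.97 with EV, a 10.3-fold fall (log2 -3.36, SE 0.25). Replicate 1 with EV was the lowest. Nkg7 fell 4.53-fold and the chromatin organiser Satb1 1.46-fold. Of 31 erythroid and megakaryocyte genes 6 rose (19.4%) and 3 fell (9.68%), against 6.28% and 7.85% of all genes. Among them the ammonium transporter Rhag was higher by log2 2.11 and the adhesion molecule Selp 2.38-fold lower. Of 14 mast cell and basophil genes 1 (7.14%), the protease Cpa3, rose (log2 1.01, SE 0.17), near the 6.28% of all genes. The rest did not pass. The list had 2 higher and 1 lower without replicate 1 with EV, and 2 higher and 2 lower against non-cultured arrays 1 to 3 alone.

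Survival genes did not lean one way. Of 28 pro-apoptotic genes 4 rose and 5 fell (median log2 0.06), 20 genes against apoptosis gave 2 rises and 4 falls (0.01), and of 29 p53 targets 6 rose and 6 fell (0.03). The BH3 proteins Bcl2l11 (log2 -1.13, SE 0.17) and Bmf (log2 0.97, SE 0.21) moved in opposite directions. Mcl1, a short-lived protector of stem cells that is also an early gene, fell by 0.96 on the log2 scale (SE 0.14), and Cflar, an inhibitor of caspase 8, rose by log2 0.69. Bcl2 differed by log2 -0.25 (SE 0.13, limma adjusted p = 0.216). The death receptor Tnfrsf10b fell by 1.83 on the log2 scale. Pim1, a survival kinase, fell by 1.74 on its brighter probe set and differed by log2 -0.26 on the other, which did not pass (limma adjusted p = 0.254).

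Chromatin genes fell more often than they rose, 10 of 34 against 3 (median log2 -0.23). Kdm6b, an inducible H3K27 demethylase, fell 3.45-fold (log2 -1.79, SE 0.10), and Ezh2, the methyltransferase for the same residue, 1.69-fold. Among 45 stromal, endothelial and matrix genes 9 rose and 2 fell (median log2 0.13), and 5 rose after median centring and against non-cultured arrays 1 to 3 alone, where 3 fell. S100a6 rose 3.96-fold and Pecam1 1.79-fold, and Igfbp4, which binds insulin-like growth factors, fell 3.17-fold. Of the 13 genes that define stromal cells, Col1a2 (log2 0.31), Sparc (log2 0.39) and Cxcl12 (log2 0.48) rose, while Dcn, Lum and Pdgfra did not pass. On its dimmer probe set Col1a2 rose by log2 0.88 (limma adjusted p = 0.0163). Without EV none of the 13 was called against non-cultured cells. Between the cultured groups 4 of the 13 (30.8%) had an unadjusted p under 0.05, against 6.82% of all genes, and none was called. The mean over those 13 was 4.42 to 4.76 with EV and 4.39 to 4.59 in non-cultured cells, ranges that overlap.

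Some of the largest changes lay outside the lists. The cartilage matrix gene Chad read 6.51, 6.24, 6.70, 6.93 and 7.20 in non-cultured cells and 10.53, 10.29, 10.21, 10.70 and 10.91 with EV, a 14.0-fold rise (log2 3.81, SE 0.22). Fabp5, a fatty acid carrier, fell on each of its 4 probe sets, by 2.25 to 4.46 on the log2 scale. Its main probe set read 4.51, 6.39, 7.71, 7.80 and 7.91 with EV, with replicate 1 far below the rest, and 9.60 to 10.16 in non-cultured cells.

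Receptors of the olfactory system appear among the largest rises. The olfactory receptor Olfr1033 differed by log2 3.38 from readings of 2.46 to 3.13, near the lowest on the arrays, and the vomeronasal receptor Vmn1r127 rose 9.82-fold. Mterf1b, a mitochondrial terminator protein, differed by log2 3.64 with an SE of 0.85, and its non-cultured readings ran from 1.96 to 6.67. It was higher with EV in 23 of 25 pairs of arrays. The small nucleolar RNA gene Snord13, named after its value was seen, had the largest fall of all genes (log2 -6.59, SE 0.59).

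**Figure D4:**
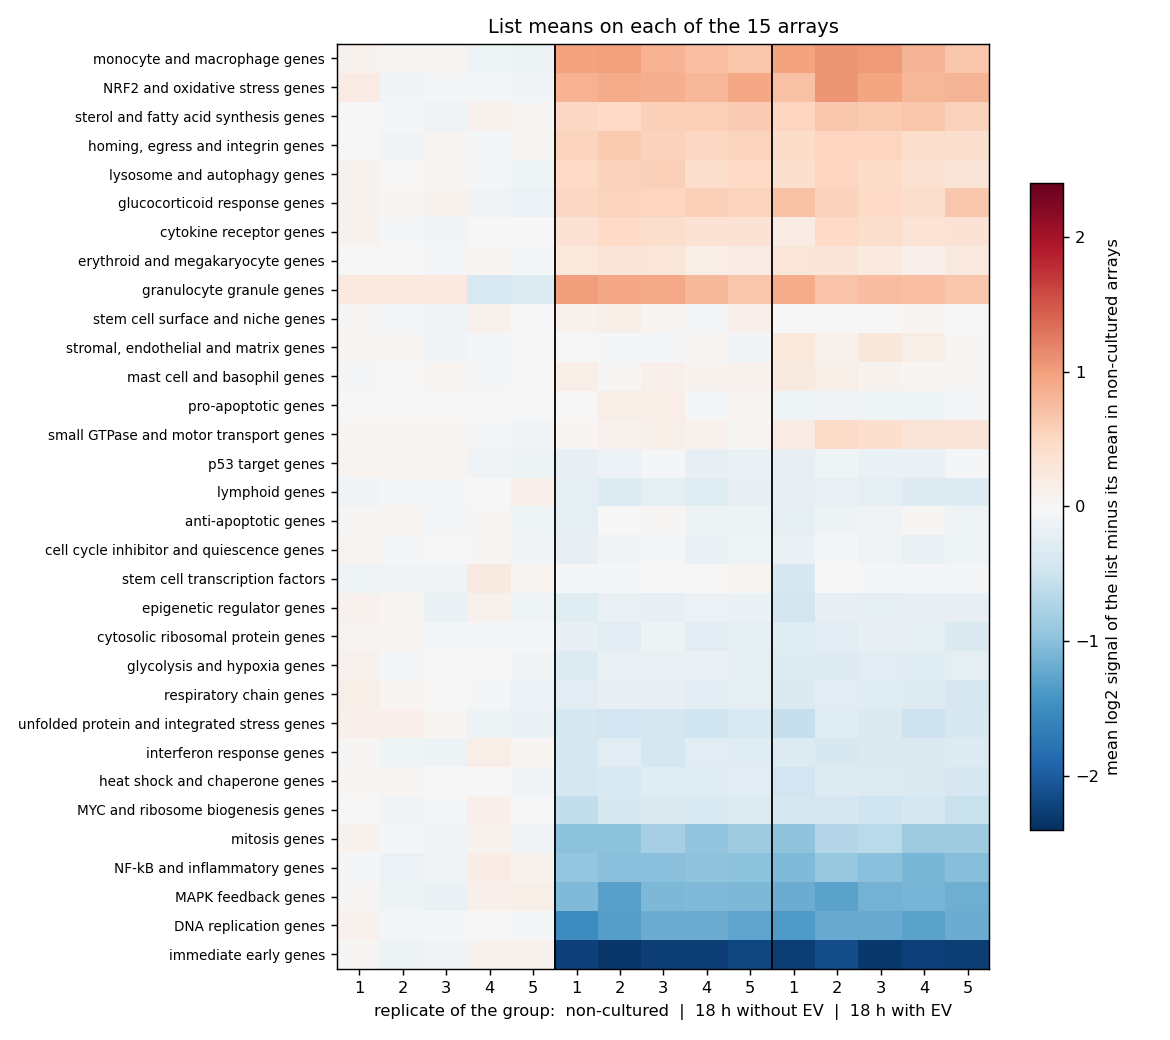
Each cell shows the mean log2 signal of a gene list (rows) on 1 array (columns, replicates 1 to 5 of each group) minus the mean over the 5 non-cultured arrays. The cultured arrays share their colours in nearly every row, and the granulocyte granule row shows non-cultured replicates 4 and 5 below replicates 1 to 3.

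The 5 arrays of cells cultured for 18 h without EV address which differences were also seen without the vesicles. Set against the same 5 non-cultured arrays, culture without EV gave 1497 genes higher (6.75%) and 1525 lower (6.88%). Because both contrasts share the non-cultured arrays, the difference between the cultured groups was tested directly. With EV against without EV, 40 genes were higher (0.18%) and 4 lower (0.018%), 44 in all (0.198%). Without replicate 2 of the cells without EV the count was 29.

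Several of the genes with large changes read alike in the cultured groups. Nr4a1 read 5.72, 6.14, 6.0, 6.20 and 6.17 without EV, and the difference between the cultured groups was log2 0.01 (SE 0.11, limma adjusted p = 0.996). Hmox1 read 10.21 to 11.02 without EV (log2 0.15, SE 0.23, limma adjusted p = 0.934), and Chil3 10.10 to 10.64 (log2 -0.01, SE 0.29, limma adjusted p = 0.998). Pcna differed by log2 -0.06 (SE 0.11) and Cxcr4 by log2 -0.19 (SE 0.14, limma adjusted p = 0.834). These p-values miss the threshold and do not show that the groups are equal.

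Against that background of 0.198%, a list with no call does not stand apart from other genes. Of the 32 lists 26 had no member called between the cultured groups in limma. Over all genes 1513 (6.82%) had an unadjusted p under 0.05. That share was 2 of 34 immediate early genes (5.88%), 4 of 40 DNA replication genes, 0 of 29 NRF2 genes and 4 of 40 monocyte and macrophage genes, with none called in these 4 lists. Their median difference with EV against without EV was log2 -0.01, -0.01, -0.02 and 0.02. Among all lists without a call, the share was highest for pro-apoptotic genes (5 of 28, 17.9%, median log2 -0.15). The list of homing, egress and integrins came next (6 of 34, 17.6%, median log2 -0.09).

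The other 6 lists held 10 called members. In the mitosis list (9 of 39 with an unadjusted p under 0.05, 23.1%) Anln stood log2 1.396 above the cells without EV (limma adjusted p = 0.0034) and Incenp, a subunit of the chromosomal passenger complex, log2 0.70 (limma adjusted p = 0.0207). In the stromal, endothelial and matrix list (9 of 45, median log2 0.10) Ddr2 and Cald1, the actin-binding caldesmon, were higher with EV, Cald1 by log2 0.68 (limma adjusted p = 0.00128). In the MYC list Polr3g, which belongs to RNA polymerase III, differed by log2 -0.78 (limma adjusted p = 0.0441). Of the 15 fits that each left out 1 array, 7 lost the call of Incenp (limma adjusted p up to 0.0716, without replicate 1 of the cells without EV) and 11 that of Polr3g (up to 0.148, without replicate 3 of the cells without EV), and none that of Anln or Cald1. The rest were Scd1, Dusp6, Kif1c, Wasf3 and Trak2.

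A small set of genes rose in culture with EV and not without. Kif1c, a kinesin that carries cargo along microtubules, read 9.89, 9.83, 10.34, 9.49 and 9.13 with EV, 5.32, 5.43, 6.04, 5.12 and 5.19 in non-cultured cells and 5.14, 5.06, 5.42, 5.56 and 4.41 without EV. The arrays with EV were all above both other groups, which overlapped each other. Against non-cultured cells the rise was 19.9-fold (log2 4.32, SE 0.24), and against culture without EV it was log2 4.62 (limma adjusted p = 5.74e-08).

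Wasf3, a WAVE protein that drives branched actin, read 7.72, 7.58, 8.12, 6.90 and 7.18 with EV and 3.45, 3.72, 4.11, 3.66 and 3.90 in non-cultured cells. Without EV it read 3.47 to 4.06, within the range of the non-cultured cells, and the rise over non-cultured cells was log2 3.73 (SE 0.20). Cgnl1, a junction protein, read 6.70 to 7.92 with EV and 3.78 to 4.44 in non-cultured cells (log2 3.14, SE 0.20), and 4.08 to 4.66 without EV. Ddr2, a receptor kinase for collagen, was nearly constant in non-cultured cells at 3.42 to 3.58 and read 5.31 to 6.70 with EV (log2 2.41, SE 0.19).

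Scd1, which puts the double bond into stearate, read 5.97, 6.52, 7.18, 5.59 and 5.04 with EV and 3.69, 3.05, 3.63, 3.49 and 3.97 in non-cultured cells. The arrays with EV varied more (SD 0.83) than the non-cultured ones (SD 0.34), and the groups did not overlap. The class I histocompatibility gene H2-Q10 was higher by log2 3.34 on its brighter probe set, while its other probe set differed by log2 -0.37 and did not pass (limma adjusted p = 0.0582). Class I genes are close copies of each other and can share probes, so the rise is uncertain.

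In Uaca and Arhgap11a culture without EV went slightly the other way. Uaca, a coiled-coil regulator of apoptosis, read 4.83 to 5.24 in non-cultured cells, 4.33 to 4.58 without EV and 6.50 to 7.54 with EV. Its log2 difference was 2.00 (SE 0.16) against non-cultured cells and 2.55 against culture without EV, which itself stood at -0.54 (limma adjusted p = 0.0287) from the non-cultured cells. Arhgap11a differed by 1.66 and 2.17 on the same scale and without EV by -0.51 (limma adjusted p = 0.0433). Trak2, an adaptor that tethers mitochondria to kinesin, differed by 1.92 and 2.30, and Cyb5r3, the cytochrome b5 reductase, by 1.95 and 2.19. All 4 were called in both comparisons, and in each of the 15 fits that left out 1 array.

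Among the lists, the genes of small GTPases and motor transport held 3 of these, Kif1c, Wasf3 and Trak2, of 32 measured. That list, like all the others, was written with earlier results of these data known, so its holding these genes is no result about the class. Against non-cultured cells 9 of the 32 rose and 2 fell (median log2 0.06). Klc1, a kinesin light chain that also rose (log2 0.90, SE 0.10), differed by only log2 0.16 between the cultured groups (limma adjusted p = 0.803). In the other direction, Dusp6 read 9.17, 9.32, 9.33, 8.82 and 9.01 without EV, between the non-cultured arrays and those with EV. It was log2 -0.62 with EV against without EV (SE 0.12, limma adjusted p = 0.0447). That call was lost in 13 of 15 fits that each left out 1 array, such as without replicate 2 with EV (log2 -0.52, limma adjusted p = 0.0711), and held without replicate 4 with EV and without replicate 4 of the cells without EV. The mean of all Dusp6 probe sets gave log2 -0.31 (limma adjusted p = 0.537), and the adjusted p over all 23 alternatives ran from 0.0176 to 0.537. No other MAPK feedback gene was called there.

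**Figure D5:**
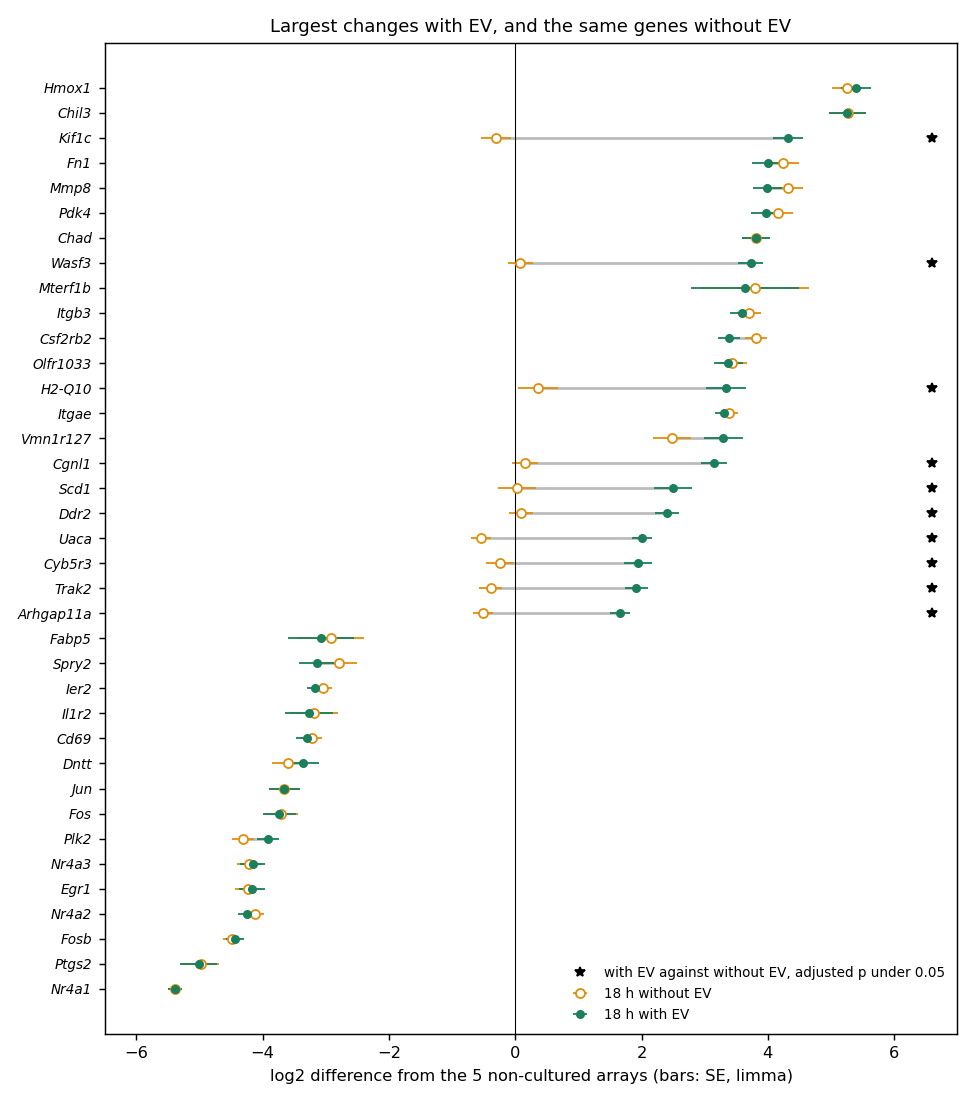
The log2 difference from the 5 non-cultured arrays (horizontal axis, with limma's SE as bars) is shown for culture with EV (filled green) and without EV (open orange) for the genes with the largest changes, with a star where the cultured groups differed at an adjusted p under 0.05. Hmox1, Chil3 and the falling genes have both points together, while Kif1c, Wasf3 and 8 further starred genes lie near 0 or below it without EV and well above it with EV.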

How the data were processed

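Total RNA of sorted LSK cells was hybridised, from 500 pg, to Affymetrix Mouse Gene 2.0 arrays, 1 per sample, per the labels' protocols. Judged by their range (1.40 to 13.0), the deposited values are log2; the base is not stated, and no further normalization was applied. MAS5 is named in the submitters' processing notes, with no version or role; how background and normalization were handled is not given in the sources used here. Without detection calls, dim signals cannot be separated from background, and the number of arrays limits precision.

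Probe sets with 1 symbol in the platform annotation were kept, and the brightest over 15 arrays stood for each gene. With limma 3.58.1 in R 4.3.3, group means were fitted over all 15 arrays (12 residual and 3.66 prior degrees of freedom), with two-sided p-values adjusted by Benjamini-Hochberg over 22180 genes and called under 0.05. The fit was also run on simulated arrays with known changes. Their noise was independent between genes, without the outlying arrays or scaling shifts seen here, so that run does not cover these. Of 1069 genes in 32 lists, 975 were measured. The members, lists and promoter motifs were chosen with earlier results of these data known. Named genes were the 15 largest called rises and falls (sign held in 20 of 25 array pairs), 4 members per list with the smallest adjusted p, the 10 largest differences between the cultured groups among genes called in both comparisons, markers and a few fixed genes, leaving out predicted and small RNA genes. Dusp6, Anln, Incenp, Polr3g and Cald1 were named between the cultured groups after their values were seen. Alternatives were quantile normalization, median centring, the 10 arrays alone, no dimmest 40% of genes, the mean of probe sets, a robust trended prior, a replicate block, non-cultured arrays 1 to 3 alone, and leaving out each array. List counts under alternatives, and fits without each array of the cells without EV, were added after the data were seen. Same-numbered arrays correlated, in their deviations from group means, at -0.125 to 0.0585 (with EV and non-cultured) and 0.0231 to 0.187 (with and without EV), not over 0.1 in every pair, so the numbers were not used as pairs.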

Additional observations from a re-analysis of the deposited data

Results flagged for a closer look

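In each of the 298 groups of 5 arrays (149 named genes, with EV and non-cultured) the highest and the lowest array were compared with the others, and 19 groups held 1 array that stood apart. Chance gives about 1 in 20 groups. The 5 such values on replicate 1 with EV were low for Dntt (5.49, the others from 6.65 to 6.97), Dusp5 (5.97), Kit (9.52) and Bcl2l11 (5.50), and high for Odc1 (7.38). On the other arrays with EV, the low values were Dusp6 on replicate 2 (8.11), Mif on replicate 3 (10.31) and Dusp1 on replicate 4 (6.68). The high values were Runx1 on replicate 2 (9.06), Vegfa on replicate 3 (7.43, the others from 5.51 to 5.94) and, on replicate 5, Ddit4 (9.53, the others from 7.97 to 8.25), Ripk3 (6.63) and Klc1 (7.13). Among non-cultured arrays, Pdk4 was high on replicate 3 (5.24, the others from 4.06 to 4.38) and Rpl7a on replicate 1 (11.62). Cxcl10 was low on replicate 4 (5.57), Gclm on replicate 3 (6.96), Klc1 on replicate 1 (5.69) and Ddr2 on replicate 5 (3.42).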

How the results depend on the processing

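The counts of genes higher and lower with EV than in non-cultured cells stayed within 1.5 times of the reported ones under all 18 alternatives, between 1147 and 1467 higher and between 1428 and 1663 lower when 1 array was left out. Median centring gave 996 higher and 2122 lower, quantile normalization 1465 and 1555. Of 149 named genes, 141 kept their direction and side of the threshold throughout. The exceptions were Meis1, which turned sign without non-cultured replicate 1 (log2 -0.0081) and replicate 3 (log2 -0.041), reached log2 0.20 without replicate 1 with EV and was never called, and Hdc, Spi1, Runx1, Srgn, Kit, Myc and Gata2, uncalled as reported and called under at least 1 alternative. Between the cultured groups 29 to 53 genes were called when 1 array was left out, the lowest without replicate 2 of the cells without EV. The causes of these changes were not tested.

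List medians of the difference from non-cultured cells moved by more than their spread over arrays as follows. Under quantile normalization they were -1.98 for immediate early, -0.82 for NF-kB, -0.38 for MYC, -0.30 for heat shock, 0.46 for lysosome, -0.21 for respiratory chain, -0.21 for ribosomal protein, 0.38 for cytokine receptor and -0.039 for lymphoid genes. Under median centring they were -0.12 for cell cycle inhibitors, -0.51 for MYC, -0.48 for heat shock, 0.38 for sterol, -0.37 for glycolysis, -0.32 for ribosomal protein, 0.10 for stem cell surface, 0.30 for homing, -0.053 for lymphoid, 0.14 for erythroid and megakaryocyte, 0.056 for stromal, -0.0098 for pro-apoptotic, -0.055 for anti-apoptotic and -0.040 for p53 genes. Without the dimmest 40% of genes they were -1.12 for NF-kB, -0.49 for interferon, 0.85 for glucocorticoid, 0.34 for cytokine receptor, 0.39 for granulocyte, 1.20 for monocyte, 0.26 for mast cell and -0.36 for lymphoid genes, over fewer members. The mean of all probe sets gave -2.01 for immediate early genes. With non-cultured arrays 1 to 3 alone they were -1.86 for immediate early, -0.50 for MYC, 0.25 for lysosome and -0.080 for anti-apoptotic genes. Leaving out 1 array gave -2.16 to -2.03 for immediate early, 0.58 to 0.77 for NRF2, -0.34 to -0.28 for glycolysis, 0.34 to 0.57 for sterol, 0.085 to 0.21 for stem cell surface, -0.89 to -0.69 for mitosis, 0.29 to 0.42 for glucocorticoid, 0.59 to 0.80 for monocyte, -0.0016 to 0.10 for pro-apoptotic and -0.0053 to 0.11 for p53 genes.

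With the replicate number as a block, 1349 genes were higher and 1714 lower, and 39 were called between the cultured groups. Same-numbered arrays with EV and non-cultured correlated at -0.125 to 0.0585 in their deviations from the group means, and those with and without EV at 0.0231 to 0.187, against -0.0828 to 0.0687 for other numbers, so the numbers were not taken as pairs, and the block ended no call of a named gene other than Dusp6 and Polr3g between the cultured groups.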
